A study of Drosophila melanogaster with 4 samples.

Results

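Chromosome arm 3R of Drosophila melanogaster carried 1382 of the 6232 regions enriched for MOF (22.2%) in the list that the authors deposited for both replicates together, here called the joint list and marked replicate set in the plots. The regions, termed clusters, were taken as every entry of that list on 3R, without the separate heterochromatic scaffold 3RHet. The lists of the single replicates held 976 (replicate 1) and 896 (replicate 2) clusters on 3R. The data came from chromatin immunoprecipitation followed by sequencing (ChIP-seq) in wild-type Oregon-R embryos aged 14 to 16 h, with the antibody MOF Q4145. There were 2 ChIP libraries and 2 input libraries of genomic DNA, 1 for each ChIP library. All 4 libraries share genotype and stage, so there was no second condition to compare. Embryos came from population cages and were used whole, so each library pools many animals and cell types, and the share of males is not given. Whether the replicates were separate embryo collections is not stated, and the spread between them may be technical.

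MOF is the acetyltransferase that places the acetyl mark on lysine 16 of histone H4, a mark that loosens the packing of nucleosomes. In flies it works in the male-specific lethal (MSL) complex, which raises transcription of the single male X chromosome, and in the non-specific lethal (NSL) complex, which sits at promoters of broadly expressed genes on every chromosome in both sexes. An autosomal arm such as 3R is not a target of this X-wide dosage compensation.

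Each cluster has a start and an end on FlyBase release 5 and a score. The score was read as the log2 of an enrichment ratio of ChIP over input, with a scaling constant of its own in each list, so that a score of 1.55 stands for 2.93-fold up to that constant. Scores were therefore compared within a list. On 3R the clusters covered 8.05% of the arm's 27.9 Mb in replicate 1, 7.47% in replicate 2 and 10.9% in the joint list. The mean of the replicates was 7.76% ± 0.409 (SD, n = 2) for the covered share and 33.5 ± 2.03 clusters per Mb (SD, n = 2) for density. Read depth was not analysed here, so no counting error of a score is given. With 1 condition and 2 ChIP libraries, regions are not replicates and no significance test was made of any difference along the arm.

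3R held clusters in proportion to its size. It makes up 23.4% of the length of the 5 large arms (X, 2L, 2R, 3L and 3R) and had 23.3% of their clusters in the joint list. Its median cluster width was 2090 bp in replicate 1, 2103 bp in replicate 2 and 2048 bp in the joint list. The 5 arms had median widths between 2016 and 2060 bp in the joint list, so 3R lay inside the range of the others. Its widest cluster, at 7157 bp, was narrower than the widest of any other arm, which measured 8568 bp on 3L, 8626 bp on 2R, 10879 bp on X and 13031 bp on 2L. Its highest score was above that of the other 4 arms in all 3 lists. It reached 3.43 in replicate 1 against 2.89 to 3.28 elsewhere, 3.96 in replicate 2 against 3.36 to 3.59, and 3.65 in the joint list against 3.05 to 3.43. Each maximum is the score of 1 cluster, and the joint list shares the libraries of the replicates. 3R also has the most clusters of the 5 arms in each list.

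The strongest MOF signal on the arm was concentrated in 1 stretch of 43.3 kb, from 8292481 to 8335798. It held 6 strong clusters of the joint list, where strong means a score at or above the 90th percentile of the arm (1.55). The weakest strong cluster scored 1.55 and the next below the limit 1.54. Of the 6, 5 measured between 2204 and 2640 bp and were present in both replicates. The first, at 8292481 to 8295120, reached a score of 3.43 in replicate 1, of 3.96 in replicate 2 and of 3.65 (12.5-fold) in the joint list. The second, at 8302206 to 8304458, scored 3.15, 3.58 and 3.42 (10.7-fold) in the same order. These were the highest and second-highest clusters of 3R in each of the 3 lists.

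A gap of 22570 bp between strong clusters followed, and then 3 clusters of near-equal width stood almost side by side. The one at 8327029 to 8329232 had scores of 2.25 and 2.77 in replicates 1 and 2 and of 2.51 in the joint list. Its neighbour at 8330311 to 8332583 scored 2.37, 2.89 and 2.61. The last, at 8333595 to 8335798, scored 2.71, 3.10 and 2.89. The gaps between these 3 were only 1078 and 1011 bp. In each list the scores climbed in the direction of the telomere, but the first step was smaller than the SD of 0.15 per single replicate given below. The joint list shares the libraries of the replicates. The sixth strong cluster of the stretch, at 8295732 to 8296732, appeared in neither replicate and is taken up with similar clusters further on. On the centromere side the next cluster of the joint list, at 8277728 to 8278732, scored 0.45, and the next one found in both replicates, at 8273729 to 8276544, scored 1.03 and 1.19 there.

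**Figure D1:**
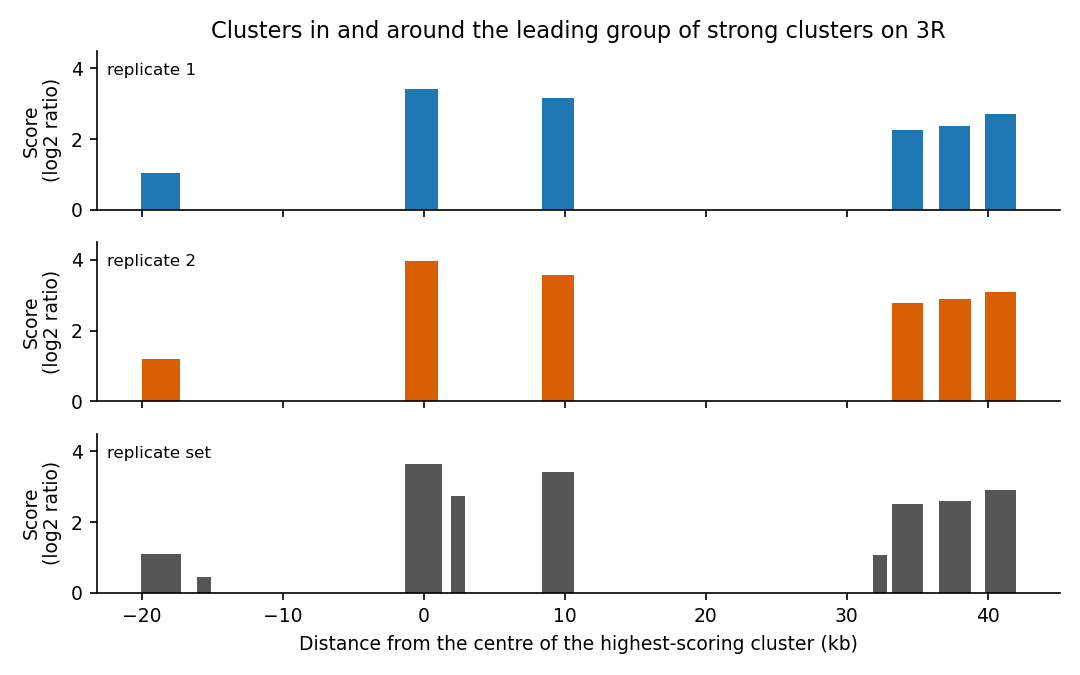
Score (log2 ratio, vertical axis) and extent of every cluster in the strongest stretch of 3R and 20 kb to either side, drawn as bars against the distance in kb from the centre of the highest-scoring cluster, for replicate 1, replicate 2 and the joint list. Both replicates show the same 5 tall clusters with scores of at least 2.25, and the joint list adds narrow clusters with no counterpart, the tallest 1001 bp wide with a score of 2.75.

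The replicates set limits on how finely scores can be ranked. Over 770 clusters of the joint list with exactly 1 partner in each replicate, the score in replicate 2 minus that in replicate 1 averaged 0.16 with an SD of 0.21, or 0.15 per single replicate. Replicate 2 was higher in 593 of the 770. Because each list has its own scaling constant, the sign and mean of this difference cannot be read as stronger enrichment in replicate 2. Across these clusters, which share their libraries, the replicates' scores correlated with Pearson's r at 0.939 and Spearman's rho at 0.887. The difference grew with strength: it averaged 0.31 over the 130 strong pairs, of which 121 were higher in replicate 2.

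**Figure D2:**
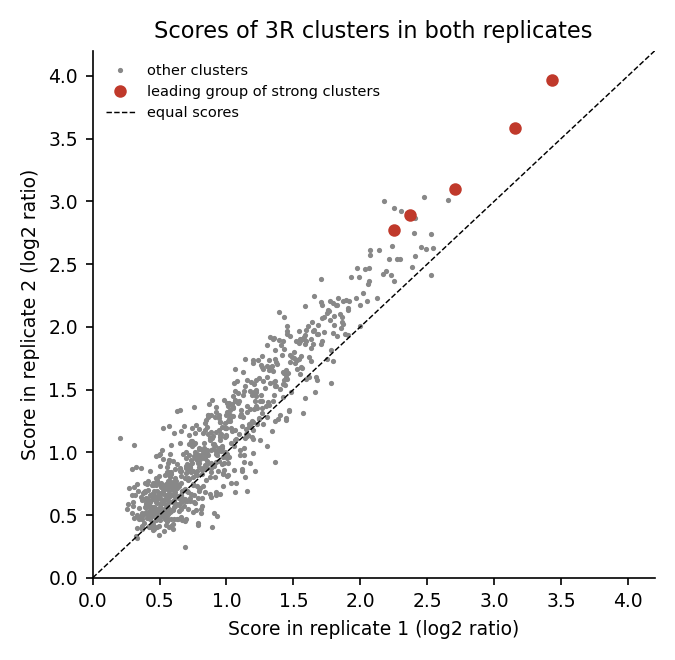
Score of each 3R cluster in replicate 2 (vertical axis, log2 ratio) against replicate 1 (horizontal axis, log2 ratio), for the 770 clusters with 1 partner in each replicate. The 5 clusters of the strongest stretch, in red, include the highest cluster of both lists, at 3.43 in replicate 1 and 3.96 in replicate 2, and the cloud lies mostly above the dashed line of equal scores. Each list has its own scaling constant, so the offset from that line cannot be read as a difference in enrichment.

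Among the 10 highest-scoring clusters found in both replicates, 4 belonged to the stretch just described, while 2 lay close together near 5.25 Mb and 4 stood elsewhere on the arm. The cluster at 5242288 to 5247058 was wide (4771 bp) and had scores of 2.66 and 3.01 in replicates 1 and 2 and of 2.68 in the joint list. Its neighbour at 5252860 to 5255286 scored 2.55, 2.63 and 2.61. The other 4 were scattered singly. They lay at 17271067 to 17273326 (score 2.62 in the joint list), 13768146 to 13770806 (2.61), 15146586 to 15149046 (2.60) and 7429400 to 7431797 (2.59). From the fourth to the tenth of these 10 the joint-list scores spanned only 2.59 to 2.68. This range is below the SD per single replicate, 0.15 over all pairs and 0.13 over strong pairs. The error of a joint-list score itself is not known. Ranks differed between the replicates: the cluster at 17271067 was number 17 in replicate 1 and 10 in replicate 2, and that at 5252860 was number 5 and 18. The next clusters below the 10 scored 2.567 and 2.566. By contrast, the clusters at 8292481 and 8302206 held rank 1 and 2 in both replicates, and that at 8333595 held rank 3 and 4.

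Strong clusters formed 10 groups of at least 3 members with no more than 50 kb between neighbours. These groups took up 37 of the 139 strong clusters, or 26.6%. Among all 139, in groups or not, 133 were found in both replicates. Of the strong clusters, 25.9% had another strong cluster as their immediate neighbour in the list, against 17.7% of the other clusters. The median distance from a strong cluster to the nearest other strong one was 46.1 kb, and from a weaker cluster to the nearest strong one 67.5 kb. The number of groups depends on the limits: at the 95th percentile only 1 group was left and at the 75th there were 42, and the lists of replicates 1 and 2 gave 6 and 7. A group in the strongest stretch was found under all 7 alternative settings, with 3 to 8 members. The looser settings, 100 kb and the 75th percentile, could not have removed it, and the stretch was singled out for its high scores.

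The second-largest group ran from 5177345 to 5264365 over 87.0 kb and had 5 strong members, all in both replicates. Its scores in the joint list were 2.24, 1.73, 2.68, 2.61 and 1.75 from the centromere side outward. The first of these, at 5177345 to 5180729, had replicate scores of 2.07 and 2.57. The group lay within the most densely covered Mb of the arm, described below. In replicate 1, 4 of its 7 clusters were in that list's own top decile, and in replicate 2, 5 of 7.

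A group of 4 stretched over 127 kb from 9808226 to 9935459, with scores of 1.96, 2.31, 1.77 and 2.00 in the joint list. Its members stood far apart, with gaps of 30927, 36088 and 48638 bp, and weaker clusters lay between them, so that 13 clusters in all fell inside the group. The member at 9841592 to 9844684 showed the widest disagreement between replicates in this group, with 2.18 in replicate 1 and 3.00 in replicate 2. Another group of 4, from 16884783 to 16980977, was weaker, with scores of 1.73, 1.69, 2.19 and 1.64. Its highest member was absent from both replicates, and 1 of its clusters was in the top decile of replicate 1 and 0 in that of replicate 2.

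The group from 10069176 to 10113773 had 3 strong members, 2 of them in both replicates. The wide cluster at its distal end, 10107527 to 10113773 (6247 bp), had scores of 2.04 and 2.46 in the replicates and of 2.22 in the joint list. The other 5 groups had 3 members each, all in both replicates like 133 of the 139 strong clusters, and spanned 23.3 to 61.8 kb. They lay at 20390291 to 20413591, 13991494 to 14026374, 12046638 to 12108433, 17428221 to 17460478 and 5911895 to 5936362, with highest scores between 1.74 and 2.28. When the strong clusters of neither replicate were left out at the same limit, a choice made after the values were seen, 9 groups were left. When the 90th percentile was instead taken over the clusters found in both replicates alone, which raises the limit, 2 groups were left.

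The longest stretch with no strong cluster measured 1506 kb, from 1110244 to 2616284, and it was not empty: 81 weaker clusters of the joint list lay in it. The window from 18 to 19 Mb was the only one of the 27 full 1 Mb windows with 0 strong clusters.

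Clusters were spread unevenly along the arm, and both replicates showed the same unevenness. Among the full 1 Mb windows, the covered share ranged from 3.49% to 13.6% with a median of 7.42% (means of both replicates). The window from 5 to 6 Mb was the most covered, with 14.1% in replicate 1 and 13.1% in replicate 2, or 13.6% ± 0.72 (SD, n = 2), and it held 80 clusters of the joint list, 12 of them strong. Next came 12 to 13 Mb with 12.3% and 11.5%, and 17 to 18 Mb with 9.94% and 10.7%. The lowest was 23 to 24 Mb with 3.53% in replicate 1 and 3.45% in replicate 2, followed by 18 to 19 Mb with 4.604% and 4.19%. Across the 27 windows, which share the same libraries, Pearson's r between the replicates' covered shares was 0.969 and Spearman's rho was 0.944.

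**Figure D3:**
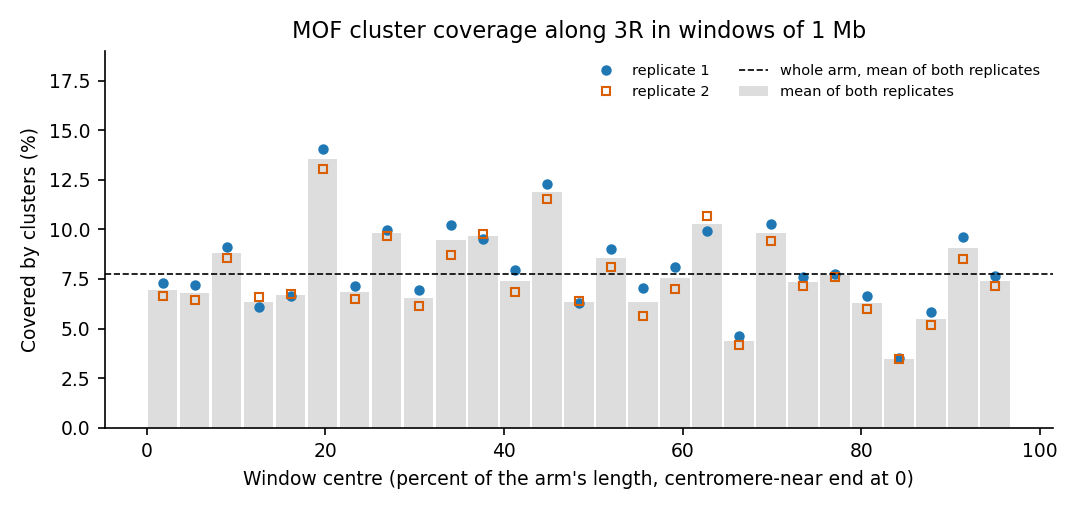
Share of each full 1 Mb window of 3R covered by clusters (vertical axis, percent) against its position in percent of the arm's length from the centromere-near end. Grey bars are means of both replicates, points are the single replicates and the dashed line is the whole arm at 7.76%. The tallest bar is the window from 5 to 6 Mb at 13.6% and the lowest that from 23 to 24 Mb at 3.49%.

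How the median score of the 2 most covered windows compared with the arm depended on the list. In the joint list it was 0.46 in the window from 5 to 6 Mb and 0.48 in that from 12 to 13 Mb, against 0.49 for the arm. In replicate 1 the same medians were 0.77 and 0.84, against 0.72 for the arm. In replicate 2 they were 0.91 and 1.05, against 0.90, so both windows lay above the arm in both replicates and below it in the joint list. The highest window median of the joint list, 0.70, belonged to 10 to 11 Mb, where 51 clusters lay, and the lowest, 0.42, to 20 to 21 Mb with 60. Across the 27 windows the number of clusters and the median score had a Spearman rho of -0.23. The window from 20 to 21 Mb also held 20 clusters that recurred in neither replicate, and 27 of its 60 (45%) were found in both. For the whole arm, 57.2% were found in both and 24.7% in neither. The lowest window share in both was 43.9%, at 1 to 2 Mb. Windows at 10 to 11 and 17 to 18 Mb had the highest shares in both, 70.6% and 69.6%.

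In windows of 250 kb the contrast was sharper. The most covered was 19 to 19.25 Mb with 19.2% in replicate 1 and 18.1% in replicate 2, followed by 17.25 to 17.5 Mb with 17.1% and 18.8%, and 12 to 12.25 Mb with 18.7% and 16.8%. These 3 of 111 full windows were covered at least 2 times as densely as the arm. Next were 5.75 to 6 Mb (15.5% ± 1.74, SD, n = 2) and 5 to 5.25 Mb (14.5% ± 1.11). The window from 19 to 19.25 Mb stood next to one of the least covered, 18.75 to 19 Mb, with 1.90% and 1.42%. It combined 21 clusters with a median score of 0.94, but only 1 of them was strong.

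The least covered window of 250 kb was 13 to 13.25 Mb, with 0.844% in replicate 1 and 1.45% in replicate 2 and a total of 3 clusters in the joint list. After 18.75 to 19 Mb came 23.5 to 23.75 Mb with a mean of 1.90% ± 0.72 (SD, n = 2), then 3.25 to 3.5 Mb with 1.95% ± 0.372, and then 6.75 to 7 Mb with 2.41% ± 0.163. The first 3 of these 5 were covered to at most 0.25 times the arm's share. No full window of 250 kb was empty in any list: 0 of 111 had no cluster in replicate 1, replicate 2 or the joint list.

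Close spacing was common. In the joint list the median gap between neighbouring clusters was 9565 bp, with the middle 50% between 3434 and 21898 bp, and 32.5% of gaps were 5 kb or shorter. In the replicates, with fewer clusters, the median gap was 13137 and 15576 bp. When clusters at most 5 kb apart were joined into chains, 729 of the 1382 (52.7%) belonged to a chain, 180 of the 280 chains were pairs, and 15 chains held 5 clusters or more.

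The longest chain had 9 clusters in 40.8 kb, from 12046638 to 12087402, and clusters covered 74.5% of it. Its scores ranged from 0.28 to 1.80, and 6 of the 9 were found in both replicates. Each replicate list had 8 clusters there. The chain lies in the window of 250 kb from 12 to 12.25 Mb, among the 3 most covered. The second chain, from 17423396 to 17463975, packed 8 clusters into 40.6 kb, and all 8 recurred in both replicates, against 57.2% over the arm. Here wide strong clusters of 5376, 4561 and 5171 bp, with scores of 1.59, 1.66 and 1.89, were separated by narrower ones. The 3 weakest of the chain, at 0.32, 0.44 and 0.42, were about 2 kb wide. The third chain, 7 clusters from 5153838 to 5186328, was less complete: 3 of the 7 were in both replicates, and apart from its strong cluster of 2.24 the scores ran from 0.20 to 0.78.

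Stretches of at least 100 kb without any cluster numbered 25 in the joint list and took up 3.36 Mb, or 12.04% of the arm. In replicates 1 and 2 there were 46 and 52, holding 24.0% and 26.3% of the arm. The longest in the joint list ran from 12985482 to 13202418 (216937 bp), mostly within the least covered window. Replicate 1 had no cluster there and replicate 2 had 1, at 13068478 to 13070022 with a score of 0.62, which the joint list lacks. The second, from 23973265 to 24149658 (176394 bp), was empty in all 3 lists, with lengths of 176451 bp in replicate 1 and 176458 bp in replicate 2. It ended at a strong cluster of score 1.895.

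The third, from 4181623 to 4354713 (173091 bp), was part of a longer one. In replicate 1 the stretch without clusters spanned 314640 bp from 4161281 to 4475920, the longest of that list, and in replicate 2 it spanned 294110 bp from 4181780 to 4475889, again the longest. The joint list had 3 clusters within the stretch of replicate 1 and 1 within that of replicate 2, and the highest of these, at 0.45, overlapped neither replicate. The remaining pair of long stretches, from 18773743 to 18937570 (163828 bp) and from 23572471 to 23730801 (158331 bp), was also empty in both replicates, where they extended to 212017 and 211968 bp, and to 186905 and 186828 bp. The 25 stretches were shared about evenly by the parts of the arm on either side of its midpoint, 13 on the centromere side with 1.74 Mb and 12 on the distal side with 1.62 Mb.

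**Figure D4:**
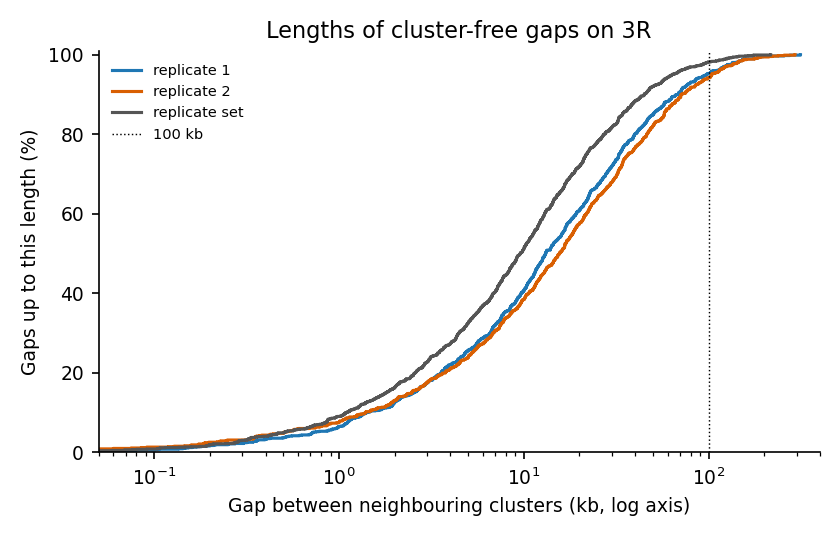
Cumulative share of the cluster-free gaps of 3R (vertical axis, percent) up to a given length (horizontal axis, kb, log scale) in replicate 1, replicate 2 and the joint list, with a dotted line at 100 kb. The curve of the joint list lies to the left, with a median gap of 9565 bp against 13137 and 15576 bp in the replicates.

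The part of the arm nearer the centromere carried more MOF clusters than the distal part. With the arm divided at its midpoint, 13952526, clusters covered 8.60% of the centromere-near part and 7.50% of the distal part in replicate 1, and 8.09% and 6.85% in replicate 2. The distal to centromere-near ratio was 0.873 and 0.847, or 0.860 ± 0.0185 (SD, n = 2). By number the parts had 37.3 and 32.6 clusters per Mb in replicate 1 and 35.3 and 29.0 in replicate 2, a ratio of 0.847 ± 0.0369 (SD, n = 2). Both replicates lay on the same side, and the difference from 1 exceeded the spread between them. That spread is between libraries and does not measure variation along the arm. The windows at 5 to 6 and 12 to 13 Mb both lay on the centromere side, and without them, a choice made after the values were seen, the ratio of covered share was 0.942 ± 0.0219 (SD, n = 2). Leaving them out could only raise the ratio, and the least covered windows, on the distal side, were not left out in turn.

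In 4 equal segments from the centromere outward, coverage was 7.97% ± 0.306, 8.72% ± 0.409, 7.83% ± 0.462 and 6.52% ± 0.461 (SD, n = 2 each). The order was the same in both replicates, with the second segment highest and the fourth lowest. Segments 1 and 3 did not differ beyond the spread between replicates. The fourth segment also had the fewest strong clusters, 24 against 36, 44 and 35 in the others, but it held the fewest clusters as well. As shares of each segment's clusters, strong ones made up 9.68%, 11.99%, 10.1% and 8.14% from the first segment to the fourth. The fourth also had the fewest of at least 3 kb, 32 of 295 (10.8%) against 12.9%, 16.1% and 17.5%. By segment, 56.2%, 58.9%, 56.0% and 58.0% of the clusters of the 4 segments were found in both replicates, with overlapping 95% exact (Clopper-Pearson) intervals that reached from 50.6% to 63.9%.

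Scores did not follow the same gradient. The median score was 0.72 in the centromere-near part and 0.73 in the distal part in replicate 1, and 0.88 and 0.92 in replicate 2, a difference, distal minus centromere-near, of 0.024 ± 0.019 (SD, n = 2). With only the higher-scoring part of each list (scores no lower than its genome-wide median) the difference took the opposite sign, -0.042 ± 0.0095.

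MOF clusters reached the centromere end of the 3R sequence of this release and came close to its other end, at 27905053. The first cluster began at base 1 of the arm in the joint list and ended at 2074. It was strong, with a score of 2.00 in replicate 1, 2.01 in replicate 2 and 2.03 (4.08-fold) in the joint list. The last, at 27896270 to 27898935, had a score of 0.53 in replicate 1 but of 1.20 in replicate 2. The 1 Mb at the centromere end of this sequence was covered to 7.28% in replicate 1 and 6.66% in replicate 2 (6.97% ± 0.438, SD, n = 2). The Mb at the centromere end of the other arms was covered to 0.779% ± 0.0661 on 2R, 0.808% ± 0.353 on 3L, 2.63% ± 0.163 on 2L and 2.98% ± 0.536 on X. The lower replicate of 3R thus lay above the higher replicate of every other arm (3.35% on X). How far the sequence of each arm reaches toward its centromere was not examined, and 3RHet is listed apart from 3R. These Mbs may therefore hold unlike chromatin, and whether the difference is a trait of 3R was not tested. At the telomere the order differed: 3R had 6.05% ± 1.12, and the other 4 arms had 7.42% to 11.1%. These arms are 5 in number and each has 1 such end, so no test was made. On the 3RHet scaffold of 2.52 Mb, which holds heterochromatic sequence of the same arm, density was lower, at 3.97 and 4.37 clusters per Mb in replicates 1 and 2.

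Recurrence was judged by at least 1 shared base. Of the 1382 clusters of the joint list on 3R, 791 (57.2%, 95% exact interval 54.6 to 59.9%) overlapped a cluster in both replicates. Over all scaffolds the share was 53.5%. A further 166 (12.01%) overlapped replicate 1 alone and 84 (6.08%) replicate 2 alone, against 11.6% and 7.61% over all scaffolds. The remaining 341 (24.7%, 22.4 to 27.0%) overlapped neither, against 27.3% over all scaffolds and 24.7% to 27.2% on the other 4 large arms. Between the replicates themselves, 799 of 976 clusters of replicate 1 (81.9%, 79.3 to 84.2%) were found in replicate 2, against 81.2% over all scaffolds. In the other direction 806 of 896 clusters of replicate 2 (89.96%, 87.8 to 91.8%) were found in replicate 1, against 86.7% over all scaffolds. On the other 4 arms that last share ran from 83.8% on X to 89.5% on 3L. The intervals cover counting error only and treat neighbouring clusters as independent.

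Where a cluster recurred, its borders were placed almost identically. Over the 770 clusters with 1 partner in each replicate, the median shift between replicates was 40.5 bp at the start and 38 bp at the end, and 90% of starts shifted by no more than 302 bp. Only 21 of the 791 recurring clusters met more than 1 cluster in a replicate. The joint list held 968 of the 976 clusters of replicate 1 and 891 of the 896 of replicate 2. The 13 that it lacked were weak, with scores between 0.40 and 0.72.

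Recurring clusters scored higher than those seen in 1 replicate alone. All 244 clusters in the highest score quartile of replicate 1 on 3R were found in replicate 2, and all 224 of replicate 2 in replicate 1. In the lowest quartile the counts were 143 of 244 (58.6%) and 158 of 224 (70.5%). Private clusters had a median score of 0.50 in replicate 1, against 0.85 for recurring ones, and of 0.55 against 0.98 in replicate 2. The highest private clusters scored 0.78 in replicate 1, at 25563399 to 25564937, and 0.80 in replicate 2, at 9625417 to 9627490. Of the 98 clusters in the top decile of replicate 1, 81 (82.7%) met a top-decile cluster of replicate 2, as did 81 of 90 the other way. Quartiles of the joint list gave 8.96%, 30.4%, 92.5% and 97.1% found in both, from lowest to highest.

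Width went with strength and recurrence as well. In the joint list, clusters under 2 kb had a median score of 0.36 and 61 of 609 (10.0%) were found in both replicates. Those of 2 to 3 kb had a median of 0.79 and 536 of 573 (93.5%) in both, and those of 3 to 5 kb had 1.23 and 168 of 174 (96.6%). All 26 clusters of at least 5 kb were found in both, with a median score of 1.39. The replicates showed the same order: medians went from 0.47 under 2 kb to 1.44 at 5 kb or more in replicate 1, and from 0.55 to 1.66 in replicate 2. Both replicate lists began at widths of 1302 and 1301 bp on 3R, whereas the joint list began at 1001 bp and had 181 clusters narrower than 1301 bp, of which 168 overlapped neither replicate.

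**Figure D5:**
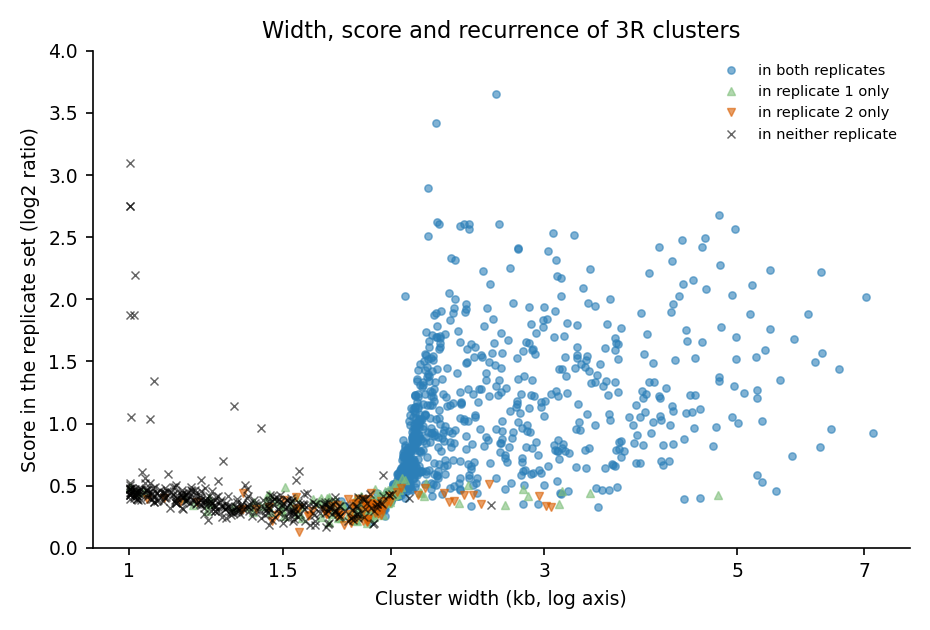
Score in the joint list (vertical axis, log2 ratio) against cluster width (horizontal axis, kb, log scale) for all 1382 clusters of 3R, with symbols for presence in both replicates, in 1 or in neither. Clusters in both replicates lie mostly above 2 kb, and a thin column of narrow clusters in neither replicate rises near 1 kb to a score of 3.10.

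The widest clusters were not the strongest. The widest, at 13740136 to 13747292 (7157 bp), scored 0.92, and each replicate resolved it into a pair: 3354 and 3364 bp wide in replicate 1, then 2817 and 3545 bp wide in replicate 2. The next, at 4877686 to 4884713 (7028 bp), was a single cluster everywhere, with widths of 6989 and 6957 bp in the replicates. Its scores were 1.91 and 2.14 there and 2.02 in the joint list. The third, at 27546305 to 27552844 (6540 bp), was single in replicate 1 (6165 bp) and a pair in replicate 2 (2488 and 3446 bp). The next pair, at 6088882 to 6095296 (6415 bp, score 0.96) and 14564070 to 14570326 (6257 bp, score 1.57), were single in both. The scores of all 26 clusters of at least 5 kb ran from 0.46 to 2.23 in the joint list, and each of the 6 strong clusters of the strongest stretch scored 2.51 or more.

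A small set of strong clusters did not recur. Of the 139 strong clusters of the joint list, 133 were found in both replicates, 6 in neither and 0 in only 1. All 6 were at most 1014 bp wide, whereas the narrowest of the 133 measured 2074 bp. The replicate lists held no 3R cluster narrower than 1302 and 1301 bp, so clusters like these could recur only under a wider one. Their absence from those lists does not show that the replicates lack signal there. The highest of the 6 lay at 22968147 to 22969147 and scored 3.10 (8.55-fold), number 3 among all scores of the arm. A pair of clusters far apart, at 8295732 to 8296732 and 10069176 to 10070176, carried exactly the same score of 2.75, and that at 16974919 to 16975932 had 2.19. Another, at 7213265 to 7214265, had 1.87.

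The scores of these 6 corresponded to ratios of small whole numbers. Taken relative to the commonest score of the list, the enrichment ratio of the highest was 7 to 1, that of the next pair 11 to 2, then 15 to 4 and 3 to 1, in lowest terms. No denominator of the 6 was above 4. For the 133 recurring strong clusters the denominator was at least 14 with a median of 476, wherever a fraction with a denominator up to 1000 was found. The number of reads behind each cluster was not analysed here, and its part in these scores was not tested. One of the 6 belongs to the strongest stretch of the arm and lies 611 bp from its highest cluster, and 2 others helped to form the groups at 10069176 and 16884783.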

How the data were processed

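Per the labels, MOF ChIP-seq was run on 2 ChIP libraries of whole Oregon-R embryos with 2 inputs. Bowtie 0.12.7 is named in the submitters' processing notes. Positions follow FlyBase release 5, per the file headers, and start at 1. How clusters were called and how the joint list (replicate set) was built is not given in the sources used here. The authors deposited 1 score per cluster with no stated unit, read here as a log2 ratio of ChIP over input. This reading was chosen because, on 3R, 2 to the power of a score relative to its list's commonest score was a ratio of whole numbers (denominator up to 1000, relative tolerance 1e-10) for 100% of the clusters of either replicate and 97.8% of the joint list. Per the labels, each single list belongs to 1 ChIP library. Read depth is unknown, since the lists hold no counts.

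Windows counted clusters by midpoint. Groups, chains and gaps used end-to-start distances. Shares carry exact (Clopper-Pearson) 95% intervals. Clusters were named by rule: the 10 highest in both replicates, the 5 highest in neither, the 5 widest, the 5 longest gaps, the 5 most and least covered windows of 250 kb, every group of strong clusters and the 3 longest chains. The arm, the lists and the rules were chosen with earlier results of these data known. Alternatives were other lists, score limits, merging within 500 bp, windows, arm divisions and overlaps. The interval functions passed 9 of 9 checks on made-up lists with known answers. Gene names and sequences are not used here, since the gene table at hand is of Release 6. Python 3.11.15, numpy 2.4.6, pandas 2.3.3, scipy 1.17.1 and matplotlib 3.10.9 were used.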

Additional observations from a re-analysis of the deposited data

How the results depend on the processing

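The distal to centromere-near ratios of covered share and density stayed below 1 under all alternatives run, and moved beyond the spread between replicates only without the 2 most covered Mb (0.942). The score difference was 0.070 between the outermost of 3 equal parts and -0.042 with scores no lower than the genome-wide median of a list; the cause was not tested. With 1 replicate left out, dense windows numbered 4 and 4 and sparse windows 4 and 3. With the joint list, covered share was 10.9%, density 49.5 per Mb and median width 2048 bp; at that score limit these were 4.55%, 16.6 per Mb and 2357 bp. With every list cut at that score limit, the lists searched for partners included, 62.1% of the joint list and 86.3% of replicate 1 recurred. These shares do not show how often higher-scoring clusters recur in the full replicate lists. Against the full lists, score quartiles 3 and 4 of the joint list had 92.5% and 97.1% in both replicates. The 3 dense windows became 8 at that limit, 6 with shifted windows and 0 at 500 kb. The 3 sparse windows became 9 at that limit, 1 in the joint list and 0 at 500 kb.

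The 10 groups became 6 at 20 kb, 16 at 100 kb, 1 at the 95th and 42 at the 75th percentile, 6 in replicate 1, and 2 when the percentile was taken over clusters in both replicates. The 25 empty stretches became 49 at 75 kb, 5 at 150 kb, 46 and 52 in replicates 1 and 2, and 73 at the score limit. The shares of 3R clusters in both replicates and of replicate 1 in replicate 2 were 56.0% and 80.6% with a reciprocal overlap of 50%. Leaving out the 2 most covered Mb, and leaving out strong clusters of neither replicate (9 groups), were chosen after seeing the data. No paired analysis was possible because the inputs have no values here and there is 1 condition.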
